A study of Mus musculus with 9 samples.

Results

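The mitochondrial carriers of the SLC25 family were described in chemically induced extraembryonic endoderm-like (ciXEN) cells and in the mouse embryonic fibroblasts (MEFs) such cells are made from. The family was chosen with earlier results of these data known. Its genes were taken by name, as every listed gene called Slc25a and a number except Slc25a31. This gave 40 of the 13787 genes listed. Their values are FPKM, the fragments counted on a transcript divided by its length and by the mapped fragments of the library, summed over the listed transcripts of a gene. The 12443 genes that averaged 0.5 FPKM or more across all libraries were tested, and 36 of the 40 carriers were among them.

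RNA freed of ribosomal RNA was sequenced in 9 libraries, all from CF-1 mice. The ciXEN cells were lines 1-1, 2-1 and 3-3, each with 1 library at passage 5 (p5) and 1 at passage 30 (p30), and the MEFs at passage 3 gave 3 libraries. The ciXEN lines carried no transgene. They had been induced on Matrigel with bFGF, VPA, CHIR99021, RepSox, Parnate, forskolin, AM580 and EPZ004777, grew out of clones picked by hand, and were kept in KnockOut DMEM with the same agents, some at a lower dose. The MEFs grew in DMEM with serum, so cell type and medium cannot be told apart in any comparison with MEFs. The sources used here do not say whether the MEF libraries came from separate embryos, so p-values measure the spread between these libraries.

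Markers of both cell types followed the labels. The summed FPKM of 8 XEN markers was 1038 to 1167 in ciXEN p5, 1194 to 1358 in ciXEN p30 and 38.0 to 51.2 in MEFs, and that of 8 fibroblast markers was 9.36 to 15.2 in ciXEN p5, 6.19 to 7.97 in ciXEN p30 and 2734 to 3217 in MEFs. The summed FPKM of 8 macrophage markers was 1.48 to 3.43 over the ciXEN libraries, with 5 of the 8 listed at 0 in every library of a passage, against 102 to 178 in MEFs. Macrophage signal in the MEF libraries thus moved with every comparison with MEFs, and its part in the results was not tested. The total FPKM of a library was 315395 to 342201, and the read number behind it was not given in the sources used here. In RNA of whole cultures, fewer cells of a type and less RNA per cell cannot be told apart.

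SLC25 proteins are nuclear-encoded carriers, most of them in the inner mitochondrial membrane, which few metabolites cross unaided. They exchange ADP for ATP, bring in phosphate, and move citric acid cycle intermediates, amino acids, nucleotides, cofactors and carnitine esters between the cytosol and the matrix. Many substrates are served by a pair of paralogues that differ in the tissues where they are used. XEN cells are the culture counterpart of primitive endoderm, whose descendants line the yolk sac and take up and process nutrients for the embryo.

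More carriers rose than fell in ciXEN cells compared with MEFs. Of the 36 tested, 19 rose, 5 fell and 12 did not pass the test, which was limma on log2(FPKM + 1) with Benjamini-Hochberg adjustment over all genes tested and a threshold of 0.05, two-sided. The share that rose was 52.8% against 42.4% of all genes tested, and the share that fell was 13.9% against 27.6%. The median log2 fold change was 0.40 over the carriers and 0.20 over all genes tested. A log2 fold change on this scale understates the change of genes at low FPKM. Slc25a18, Slc25a21 and Slc25a48, at most 0.107 FPKM in MEFs, passed the filter only through the ciXEN libraries and are counted among those that rose. Slc25a29 and Slc25a43, higher on average in MEFs, were kept out by the same filter. In 17 of the 36 every ciXEN library lay above every MEF library (36.8% of all genes tested did), and in 6 every ciXEN library lay below (24.4% of all genes tested). Without MEF replicate 3, 14 rose, beside 4799 of the 12443 genes tested (5280 in the main fit). Without MEF replicate 1, 3 fell, beside 3164 of all genes tested (3439 in the main fit). With values rescaled to equal library sums, equal library medians or equal quantiles, 8 fell, beside 3687, 3648 and 3633 of all genes tested. Several of the changes ran in opposite directions within a pair of paralogues, which the plot of fold changes by substrate shows.

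**Figure D1:**
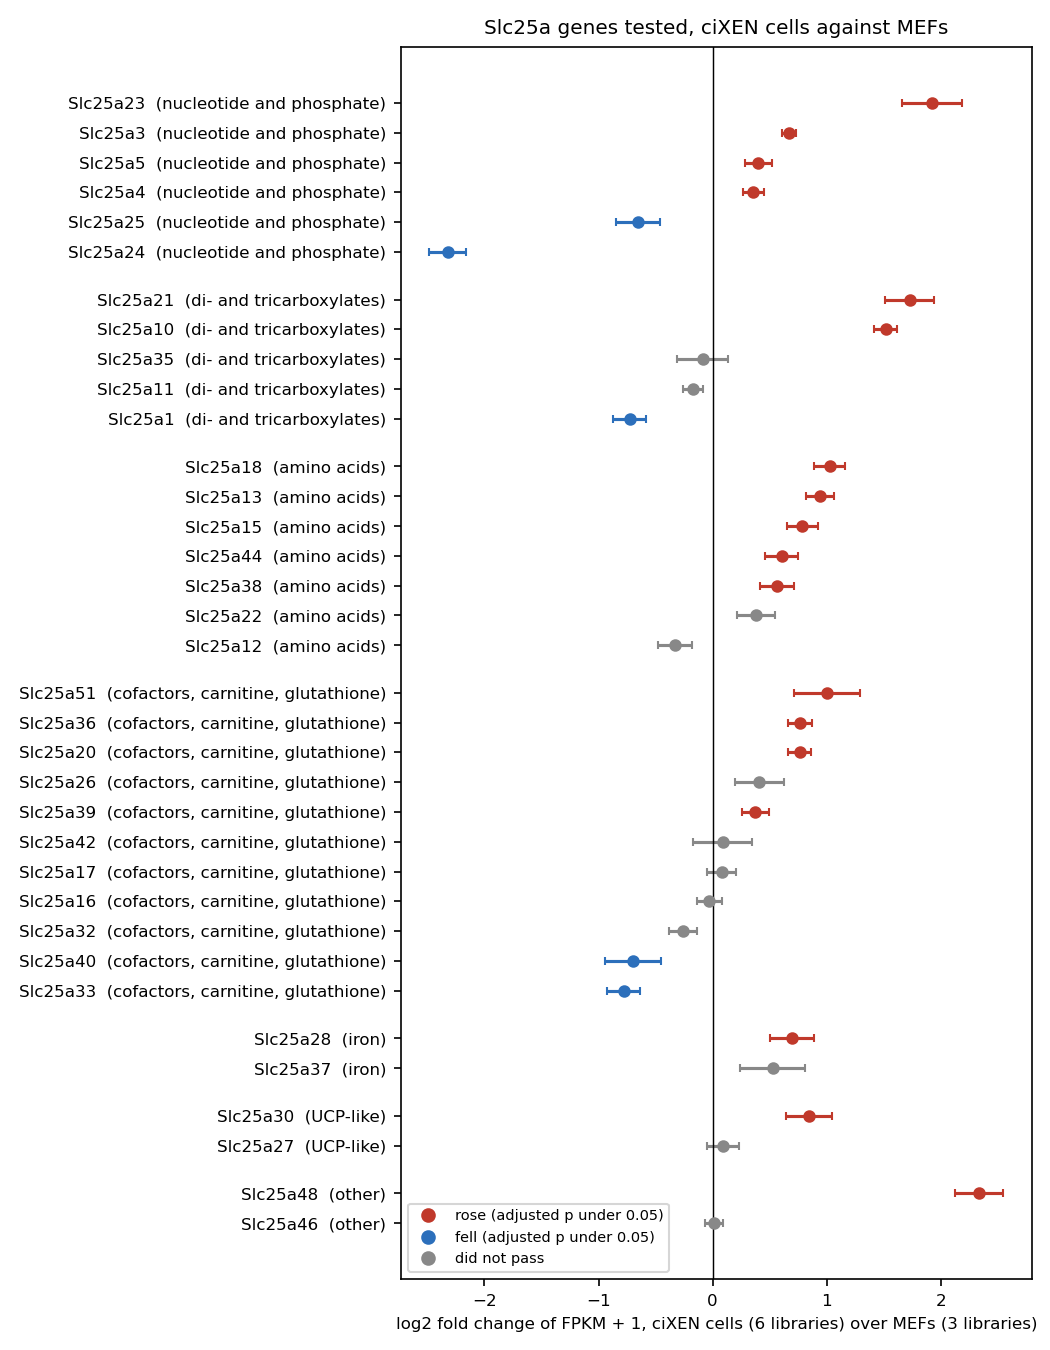
Log2 fold change of FPKM + 1 in ciXEN cells (6 libraries) over MEFs (3 libraries) for 35 of the 36 carriers tested, grouped by the substrate class in brackets. Points are limma estimates, bars are their standard errors, and colour gives the call, with Slc25a48 the highest of those that rose at 2.33 and Slc25a24 the lowest of the 5 that fell at −2.32.

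Promoter windows of 300 bases, 250 before and 50 after the start of a RefSeq transcript (build GRCm38.p6), were found for 31 of the 40 genes. They were searched for CACGTG, the E-box that reads alike on both strands and is bound by basic helix-loop-helix factors such as MYC and USF. It stood in a window of 6 of the 31 genes (19.4%), against 12.0% of the tested genes with a window and 8.09% of all genes in the RefSeq table. The 31 include carriers too low to test, with Slc25a14 among the 6, so they are not fully alike to the tested genes. Counted by window, it stood in 17.5% of the carriers' 40 windows and 7.15% of all windows. Of the 5 tested genes among the 6, Slc25a13, Slc25a15 and Slc25a36 rose and Slc25a1 and Slc25a33 fell. The windows of Slc25a13, Slc25a33 and Slc25a36, which belong to paralogue pairs whose balance differed between the groups, are printed 5′ to 3′ with CACGTG in capitals. They lie on the minus strand at chr6:6217124-6217423, chr4:149774218-149774517 and chr9:97110992-97111291, and the motif begins at −125, −8 and −187 from the start. A match is a description of the letters and no evidence of binding.
Slc25a13: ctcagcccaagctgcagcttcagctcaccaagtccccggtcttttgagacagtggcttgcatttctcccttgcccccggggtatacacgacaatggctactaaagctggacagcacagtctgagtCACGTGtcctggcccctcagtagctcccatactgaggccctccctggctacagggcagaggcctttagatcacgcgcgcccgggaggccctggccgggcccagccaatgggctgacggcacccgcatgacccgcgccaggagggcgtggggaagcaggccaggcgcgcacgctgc
Slc25a33: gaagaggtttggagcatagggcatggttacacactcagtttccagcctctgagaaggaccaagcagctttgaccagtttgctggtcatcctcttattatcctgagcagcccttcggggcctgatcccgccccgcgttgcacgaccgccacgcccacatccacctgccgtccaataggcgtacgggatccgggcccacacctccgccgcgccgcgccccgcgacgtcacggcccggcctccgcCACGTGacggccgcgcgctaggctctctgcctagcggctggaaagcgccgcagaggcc
Slc25a36: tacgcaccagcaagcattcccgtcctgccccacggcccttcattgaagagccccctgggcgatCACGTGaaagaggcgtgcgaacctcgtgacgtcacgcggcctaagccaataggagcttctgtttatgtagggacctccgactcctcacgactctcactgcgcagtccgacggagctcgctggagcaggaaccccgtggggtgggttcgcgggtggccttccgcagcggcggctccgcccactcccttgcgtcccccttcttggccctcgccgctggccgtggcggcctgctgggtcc

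The consensus site of nuclear respiratory factor NRF1 stood in 1 of the 31 genes, Slc25a3 (3.23%), against 11.6% of the tested genes with a window. CCAAT, read by NF-Y, stood in 16 of the 31 (51.6%, against 43.4% of tested genes), and GGGCGG, the GC box of SP1, in 27 of the 31 (87.1%, against 70.5% of tested genes). Here too the 31 include carriers too low to test. All motifs were searched on both strands.

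The carriers of energy transfer made up most of the family's RNA. The FPKM of the 40 carriers summed to 942 ± 27.2 in ciXEN p5, 980 ± 79.8 in ciXEN p30 and 742 ± 20.3 in MEFs (SD, n = 3 each), and every ciXEN library was above every MEF library. Slc25a4, Slc25a3 and Slc25a5 held 61.6% to 67.7% of that sum in ciXEN libraries and 57.5% to 61.6% in MEF libraries. The 5 carriers with the highest mean were these 3, then Slc25a39 and Slc25a17.

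Slc25a3, which brings phosphate into the matrix for ATP synthesis, stood at 227, 219 and 216 FPKM in ciXEN p5 and 224, 240 and 256 FPKM in ciXEN p30, against 150, 139 and 143 FPKM in MEFs. The groups did not overlap, and the log2 fold change was 0.67 ± 0.060 (SE, limma adjusted p = 7.6e-06). Slc25a4 (ANT1), the ADP/ATP carrier of heart and muscle, had 216, 219 and 236 FPKM in ciXEN p5 and 245, 307 and 317 FPKM in ciXEN p30, against 209, 180 and 207 FPKM in MEFs. Slc25a5 (ANT2), the ADP/ATP carrier of dividing cells, had 155, 150 and 149 FPKM in ciXEN p5 and 95.0, 112 and 141 FPKM in ciXEN p30, against 112, 96.7 and 90.8 FPKM in MEFs. Both rose over the 6 ciXEN libraries (0.35 ± 0.092 and 0.40 ± 0.118, limma adjusted p = 0.0069 and 0.013). At p5 Slc25a5 passed against MEFs (0.60) and Slc25a4 did not (0.17), and at p30 Slc25a4 passed (0.54) and Slc25a5 did not (0.20). Neither passed between p30 and p5 (0.36 for Slc25a4, limma adjusted p = 0.070, and −0.40 for Slc25a5, limma adjusted p = 0.11). Slc25a4 made up 58.3% to 61.2% of the pair in ciXEN p5, 69.2% to 73.2% in ciXEN p30 and 65.0% to 69.5% in MEFs. These paralogues share much sequence with each other and with processed pseudogenes, and the sources used here do not say how shared reads were divided. The rise of Slc25a5 over all ciXEN libraries was lost without MEF replicate 3 (limma adjusted p = 0.064).

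Of the calcium-regulated ATP-Mg/phosphate carriers, which set the size of the adenine nucleotide pool in the matrix, Slc25a24 fell and Slc25a23 rose. Slc25a24 (SCaMC-1), the form common in cultured and tumour cells, had 7.33, 5.69 and 4.61 FPKM in ciXEN p5 and 12.6, 10.1 and 7.96 FPKM in ciXEN p30, against 39.9, 47.0 and 40.2 FPKM in MEFs. It fell the furthest of the family (log2 fold change −2.32 ± 0.161, SE, limma adjusted p = 1.3e-06). Slc25a23 (SCaMC-3), the form of liver and brain, had 19.7, 19.4 and 17.2 FPKM in ciXEN p5 and 22.6, 8.26 and 12.7 FPKM in ciXEN p30, against 3.20, 2.60 and 4.82 FPKM in MEFs. It rose by 1.92 ± 0.267 (SE, limma adjusted p = 0.00015), and the groups of both genes were separate. Slc25a24 was 21.2% to 54.9% of the pair in ciXEN libraries and 89.3% to 94.8% in MEFs. In line 2-1 at p30 it was still the larger of the 2 (54.9%). Slc25a25 (SCaMC-2) was low throughout, at 0.779 to 2.50 FPKM in ciXEN cells and 3.00 to 3.58 FPKM in MEFs. It fell by 0.66 on the log2 scale (limma adjusted p = 0.013). By its highest transcript alone (−0.21, limma adjusted p = 0.57), or without MEF replicate 1, Slc25a25 did not pass. Slc25a25 shares 989 bases with Naif1 on the other strand, which had 1.46 to 2.00 FPKM over all libraries. The part of Naif1 reads was not tested.

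Slc25a23 overlaps Crb3, an epithelial polarity gene on the other strand, by 759 bases. Crb3 had 3.18 to 12.9 FPKM in the ciXEN libraries and was at 0, 0 and 0.182 FPKM in MEFs. The kit kept the strand, but the sources used here do not say whether the counting used it, and the part of Crb3 reads in the value of Slc25a23 was not tested.

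**Figure D2:**
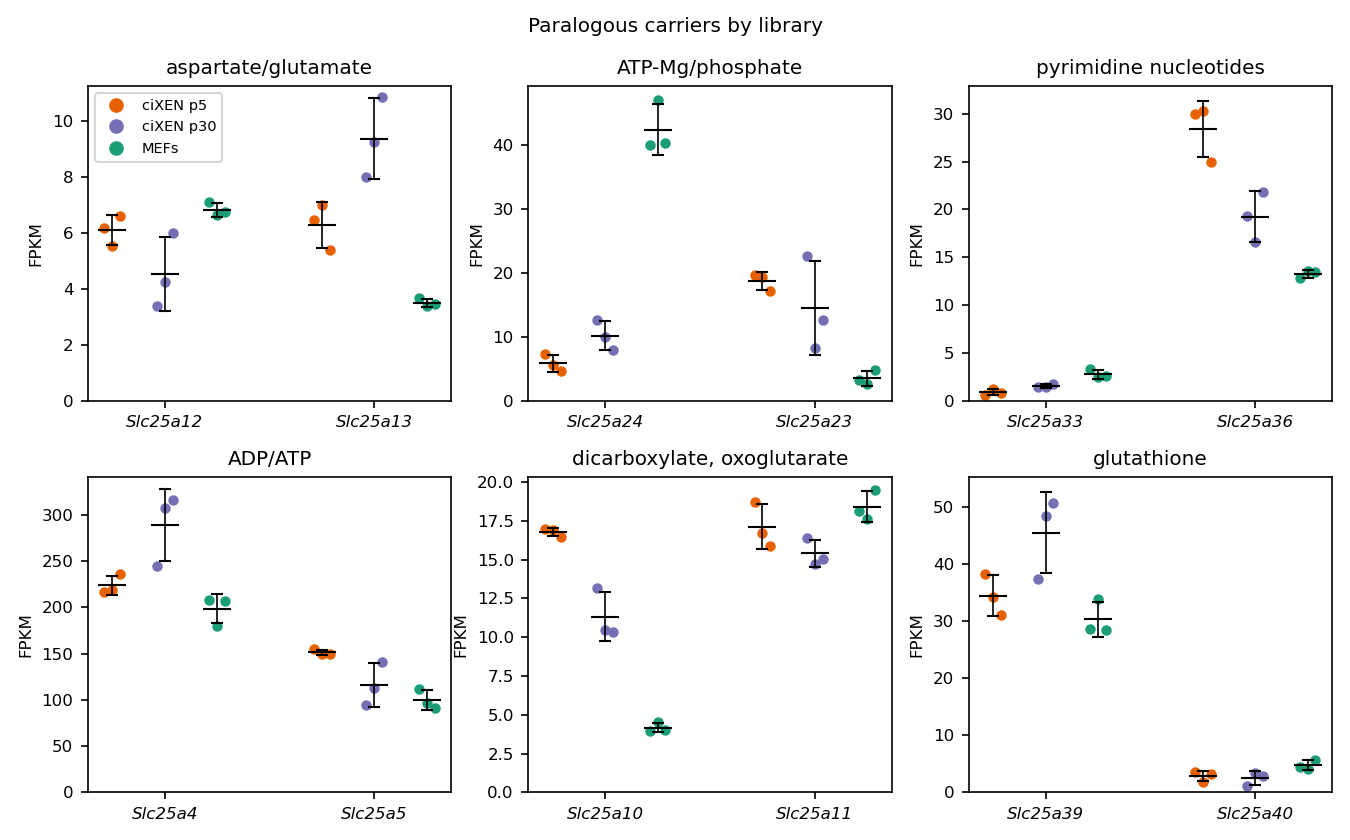
FPKM of 6 pairs of paralogous or related carriers in each library of ciXEN p5, ciXEN p30 and MEFs (points), with the mean and SD of 3 libraries (bars); each panel has its own scale from 0. Slc25a24 is at 4.61 to 12.6 in ciXEN cells and 39.9 to 47.0 in MEFs, and Slc25a23 at 8.26 to 22.6 in ciXEN cells and 2.60 to 4.82 in MEFs.

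The carriers of citric acid cycle acids differed in direction. Slc25a10, which exchanges malate and succinate for phosphate, had 17.0, 16.9 and 16.5 FPKM in ciXEN p5 and 13.1, 10.5 and 10.4 FPKM in ciXEN p30, against 3.96, 4.52 and 4.04 FPKM in MEFs (log2 fold change 1.51 ± 0.104, SE, limma adjusted p = 1.2e-06). Its relative Slc25a11, the oxoglutarate/malate carrier of the malate-aspartate shuttle, had 14.7 to 18.7 FPKM in ciXEN cells and 17.6 to 19.5 FPKM in MEFs. Slc25a11 did not pass (−0.17, limma adjusted p = 0.10), though it fell with the 3 rescaled sets of values (−0.23 to −0.29). It shares 245 bases with Rnf167 on the other strand. Rnf167 had 7.33 to 15.6 FPKM in ciXEN cells and 1.89 to 3.77 FPKM in MEFs, and the part of its reads was not tested. Slc25a10 made up 40.8% to 50.9% of the sum of Slc25a10 and Slc25a11 in ciXEN cells and 17.2% to 20.4% in MEFs.

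Slc25a21, the carrier of 2-oxoadipate from lysine and tryptophan breakdown, had 6.25, 4.12 and 3.48 FPKM in ciXEN p5 and 2.24, 1.08 and 0.746 FPKM in ciXEN p30. In MEFs it was at most 0.107 FPKM. It rose by 1.73 ± 0.217 (SE, limma adjusted p = 7.7e-05). As it passed the filter only through the ciXEN libraries, this p-value is limited by that choice. Slc25a21 overlaps Pax9, a transcription factor gene on the other strand, by 189 bases. Pax9 had 2.94 to 7.19 FPKM in ciXEN p5 and 1.29 to 2.35 FPKM in ciXEN p30, against 0.0789 to 1.03 FPKM in MEFs, with the 3 groups separate and in the same order as for Slc25a21. The part of its reads in the value of Slc25a21 was not tested. The citrate carrier Slc25a1, which exports citrate for fatty acid and sterol synthesis, went the other way, with 23.7, 15.5 and 23.6 FPKM in ciXEN p5 and 28.0, 34.9 and 26.7 FPKM in ciXEN p30, against 39.9, 42.4 and 42.6 FPKM in MEFs. It fell by 0.73 ± 0.143 (SE, limma adjusted p = 0.0014), with no overlap between the groups. Slc25a35, whose substrate is not settled, did not pass (−0.09, limma adjusted p = 0.74) and shares 1882 bases with Rangrf on the other strand.

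The aspartate/glutamate carriers of the malate-aspartate shuttle shifted from Slc25a12 to Slc25a13. Slc25a13 (citrin), the form of liver, had 6.45, 7.02 and 5.40 FPKM in ciXEN p5 and 7.99, 9.25 and 10.9 FPKM in ciXEN p30, against 3.67, 3.41 and 3.46 FPKM in MEFs. It rose by 0.94 ± 0.124 (SE, limma adjusted p = 0.00011), and every ciXEN library was above every MEF library. Slc25a12 (aralar), the form of brain and muscle, had 6.16, 5.53 and 6.60 FPKM in ciXEN p5 and 3.38, 4.27 and 5.99 FPKM in ciXEN p30, against 7.10, 6.63 and 6.75 FPKM in MEFs. Slc25a12 did not pass over both passages (−0.33, limma adjusted p = 0.071) and fell at p30 against MEFs (−0.52, limma adjusted p = 0.023) and did not pass between p30 and p5 (−0.38, limma adjusted p = 0.21). The call at p30 was lost when any MEF library, or line 1-1 or 2-1 at p30, was left out. Its share of the pair was 48.9%, 44.1% and 55.0% in ciXEN p5 and 29.7%, 31.6% and 35.5% in ciXEN p30, against 66.0%, 66.1% and 66.1% in MEFs. The 3 groups were separate in this share, lowest in ciXEN p30 and highest in MEFs.

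Of the 15 tested genes that work beside these carriers in the malate-aspartate shuttle and the use of citrate, 7 rose, 1 fell and 7 did not pass, where 42.4% of all genes tested rose and 27.6% fell. Got2, the matrix transaminase of the shuttle, had 106 to 119 FPKM in ciXEN cells and 45.4 to 49.5 FPKM in MEFs (1.24), and Mdh1, the cytosolic malate dehydrogenase, rose by 1.16. Me1, the cytosolic malic enzyme that yields NADPH, was the one that fell (−0.54). The median log2 fold change of these 15 was 0.32, beside 0.20 over all genes tested.

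Of 7 amino acid carriers tested, 5 rose and 2, Slc25a12 and Slc25a22, did not pass, beside 42.4% of all genes tested that rose. Slc25a15, the ornithine carrier of the urea cycle, averaged 5.88 ± 0.498 FPKM in ciXEN cells (SD, n = 6 libraries, from 3 lines at both passages). It averaged 3.02 ± 0.682 FPKM in MEFs (SD, n = 3) and rose by 0.78 (limma adjusted p = 0.00062). Slc25a44, which carries branched-chain amino acids, rose by 0.60, though not by its highest transcript alone (limma adjusted p = 0.49). Slc25a38, the glycine carrier needed for the first step of haem synthesis, rose by 0.56. The glutamate carrier Slc25a22 stood at 6.75 to 11.7 FPKM in ciXEN cells and 6.14 to 8.30 FPKM in MEFs and did not pass (0.38, limma adjusted p = 0.069). Its paralogue Slc25a18 was at 0.760 to 1.43 FPKM in ciXEN cells and at most 0.0963 FPKM in MEFs, a rise of 1.02 at a low level. This paralogue passed the filter only through the ciXEN libraries. Slc25a18 shares 32 bases with Atp6v1e1 on the other strand, which had 82.4 to 103 FPKM in ciXEN cells and 61.8 to 66.7 FPKM in MEFs, and the part of its reads was not tested. Slc25a22 still made up 87.1% to 91.1% of the pair in ciXEN cells, against 98.6% to 100% in MEFs.

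The pyrimidine nucleotide carriers, which supply the matrix for mitochondrial DNA and RNA synthesis, formed another pair with opposite changes. Slc25a36 had 30.0, 30.2 and 25.0 FPKM in ciXEN p5 and 19.3, 16.6 and 21.9 FPKM in ciXEN p30, against 12.8, 13.6 and 13.5 FPKM in MEFs (0.77 ± 0.105, SE, limma adjusted p = 0.00014). Slc25a33 had 0.668, 1.25 and 0.778 FPKM in ciXEN p5 and 1.41, 1.45 and 1.82 FPKM in ciXEN p30, against 3.32, 2.47 and 2.56 FPKM in MEFs (−0.78 ± 0.143, SE, limma adjusted p = 0.00089). Neither gene's groups overlapped. Slc25a36 was the main form everywhere, and Slc25a33 was 2.18% to 8.03% of the pair in ciXEN cells and 15.4% to 20.6% in MEFs. Their promoter windows, printed earlier, were picked from those that hold the E-box.

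The rise of Slc25a36 depended on its transcripts. Transcript ENSMUST00000035024, with a coding sequence of 516 bases in place of 933, had 5.20 to 7.43 FPKM in the ciXEN libraries, 22.0% to 44.4% of the gene, and was listed at 0 in all 3 MEF libraries. The main transcript ENSMUST00000085206 had 18.6, 18.8 and 17.7 FPKM in ciXEN p5 and 10.0, 8.13 and 13.9 FPKM in ciXEN p30, against 11.5, 12.1 and 12.1 FPKM in MEFs. By this transcript alone the log2 fold change was 0.21 (limma adjusted p = 0.24) over both passages and −0.17 at p30. At p5 against MEFs the rise was kept by this transcript alone (limma adjusted p at most 0.015). The 2 share 3965 bases, so the division between them rests on the reads at their differing parts.

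**Figure D3:**
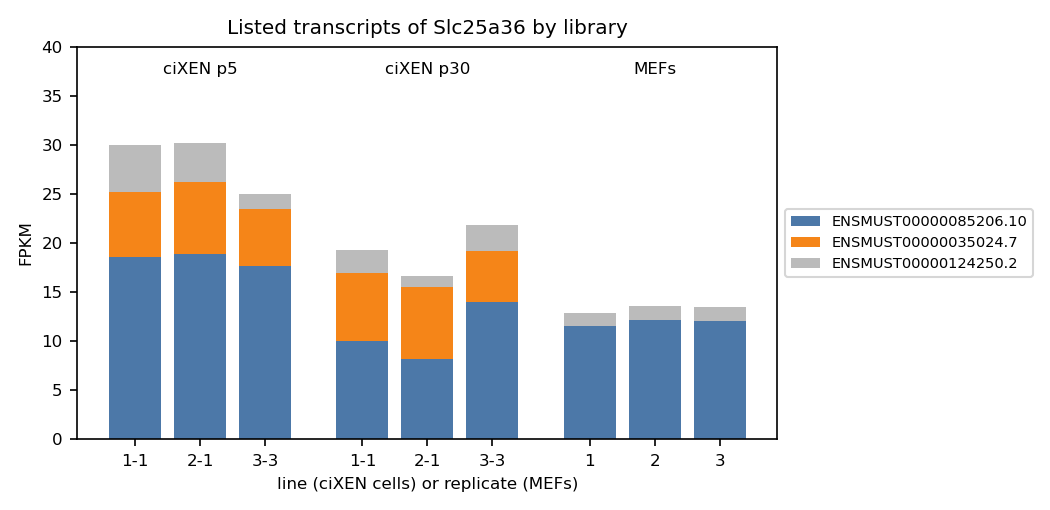
FPKM of the 3 listed transcripts of Slc25a36 in each library, stacked, with ciXEN p5 and p30 by line and MEFs by replicate. Transcript ENSMUST00000035024 is at 5.20 to 7.43 in all 6 ciXEN libraries and listed at 0 in the 3 MEF libraries.

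Among the 12 carriers of nucleotides, cofactors, carnitine and glutathione tested, 5 rose, 2 fell and 5 did not pass, against 42.4% and 27.6% of all genes tested. Slc25a20, the carnitine/acylcarnitine carrier of fatty acid oxidation, had 12.7 to 19.0 FPKM in ciXEN cells and 8.32 to 9.17 FPKM in MEFs and rose by 0.76 (limma adjusted p = 9.9e-05). Of 9 tested genes of carnitine-dependent oxidation, 1 rose and 4 fell (42.4% and 27.6% of all genes tested did). Acadm, a medium-chain dehydrogenase, was the one that rose (0.30), and those that fell included Cpt1c (−1.47), a brain form of carnitine palmitoyltransferase, and Acadl (−0.52), a long-chain dehydrogenase. Slc25a51, the carrier of NAD, had 24.5, 11.5 and 24.5 FPKM in ciXEN p5 and 18.7, 15.9 and 10.7 FPKM in ciXEN p30, against 9.34, 10.0 and 5.15 FPKM in MEFs (1.00 ± 0.290, SE, limma adjusted p = 0.012). Its rise did not pass without MEF replicate 3 (limma adjusted p = 0.066) or by its highest transcript (limma adjusted p = 0.057).

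Slc25a39, which carries glutathione into the matrix, had 38.1, 34.2 and 31.0 FPKM in ciXEN p5 and 37.4, 48.4 and 50.6 FPKM in ciXEN p30, against 28.5, 33.9 and 28.4 FPKM in MEFs, a rise of 0.37 ± 0.117 (SE, limma adjusted p = 0.018) with overlapping groups. Its paralogue Slc25a40 had 3.49, 1.82 and 3.21 FPKM in ciXEN p5 and 1.20, 3.48 and 2.92 FPKM in ciXEN p30, against 4.51, 4.17 and 5.76 FPKM in MEFs, and fell by 0.69 (limma adjusted p = 0.030). Both calls were lost without MEF replicate 1 or 3. That of Slc25a39 was also lost with quantile normalisation, and that of Slc25a40 without MEF replicate 2 or line 2-1 at p5, or by its highest transcript. Slc25a39 was 90.6% to 96.9% of the pair in ciXEN cells and 83.1% to 89.0% in MEFs.

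Slc25a32, the carrier that brings folate and FAD into the matrix, had 6.02 to 8.09 FPKM in ciXEN cells and 7.52 to 9.53 FPKM in MEFs and did not pass (−0.26, limma adjusted p = 0.081), though it fell with each of the 3 rescaled sets. Of 12 folate enzymes tested, 6 rose, 5 fell and 1 did not pass, with 42.4% of all genes tested rising and 27.6% falling. Those that fell included the mitochondrial enzymes Aldh1l2 (−4.81), Mthfd2l (−3.09), Mthfd2 (−2.13) and Shmt2 (−0.99), and those that rose included Shmt1 (2.21) and Mthfd1 (1.68) of the cytosol and Gldc (4.25), the decarboxylase of the mitochondrial glycine cleavage system. Mthfd2 stood at 14.2 to 43.5 FPKM in ciXEN cells and 97.1 to 101 FPKM in MEFs. The other 4 carriers of this class that did not pass were Slc25a16 and Slc25a42, both linked to coenzyme A, Slc25a17 of the peroxisome, and Slc25a26, which carries S-adenosylmethionine. Slc25a17 had 50.0, 38.6 and 37.5 FPKM in ciXEN p5 and 26.9, 26.2 and 35.8 FPKM in ciXEN p30, on either side of the 33.3, 32.9 and 33.0 FPKM in MEFs (0.08, limma adjusted p = 0.59). Slc25a42 had 0.791 to 3.01 FPKM in ciXEN cells and 1.47 to 1.79 FPKM in MEFs.

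Of the mitoferrins, which carry iron into the matrix for haem and iron-sulphur clusters, Slc25a28 (mitoferrin-2) had 9.56, 9.56 and 8.50 FPKM in ciXEN p5 and 10.7, 7.73 and 16.0 FPKM in ciXEN p30, against 6.87, 5.86 and 4.92 FPKM in MEFs. It rose by 0.69 ± 0.193 (SE, limma adjusted p = 0.0097), or 0.59 without MEF replicate 3, which did not pass (limma adjusted p = 0.051). Slc25a37 (mitoferrin-1), the form of red cell precursors, had 1.64, 1.65 and 4.45 FPKM in ciXEN p5 and 2.98, 1.44 and 3.73 FPKM in ciXEN p30, against 1.17, 1.83 and 1.28 FPKM in MEFs, and did not pass (0.53, limma adjusted p = 0.12). Of 13 tested genes of iron uptake and haem synthesis, 8 rose and 1 fell, beside 42.4% and 27.6% of all genes tested. The transferrin receptor gene Tfrc rose by 1.95 and Alad, of the haem pathway, by 1.91, while Fech, which inserts the iron, fell by 0.44.

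Among the carriers of less settled substrate, Slc25a48, linked to choline, rose the furthest of the family. It had 3.10, 3.82 and 4.26 FPKM in ciXEN p5 and 3.84, 8.02 and 3.64 FPKM in ciXEN p30, against 0.103 and 0.0267 FPKM and a listed 0 in MEFs (2.33 ± 0.213, SE, limma adjusted p = 8.8e-06). Only the ciXEN libraries brought it past the filter, which limits this p-value. Slc25a30, a relative of the uncoupling proteins, had 7.26 to 16.6 FPKM in ciXEN cells and 4.41 to 6.62 FPKM in MEFs and rose by 0.84 (limma adjusted p = 0.0043). Slc25a27, an uncoupling protein of brain, did not pass (0.09). Slc25a46, which sits in the outer membrane and acts in mitochondrial division, had 13.8 to 17.2 FPKM in ciXEN cells and 14.5 to 15.2 FPKM in MEFs (0.01 ± 0.077, SE, limma adjusted p = 0.91). Of the 4 carriers too low to test, Slc25a29, the basic amino acid carrier, was at 0.0582 to 0.363 FPKM in ciXEN cells and 0.499 to 0.628 FPKM in MEFs. Slc25a43 and Slc25a45 stayed under 1 FPKM in every library. Slc25a14, a brain uncoupling protein, was listed at 0 in all of ciXEN p5 and had 0, 1.58 and 1.51 FPKM in ciXEN p30, against 0, 0 and 0.220 FPKM in MEFs. With no filter on low values Slc25a29 (−0.38) and Slc25a43 (−0.27) fell as well.

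Each passage was also set against the same MEF libraries, so these comparisons share their controls. At p5, 17 of the 36 rose and 3 fell (40.7% and 25.8% of all genes tested did). After quantile normalisation 14 rose and 5 fell, beside 4698 and 3537 of the 12443 genes tested (5067 and 3206 in the main fit). Without line 1-1 at p30, whose library enters only the spread, 5 fell at p5, beside 3258 of all genes tested. The 3 that fell were Slc25a1, Slc25a24 and Slc25a33. At p30, 18 rose and 7 fell (38.2% and 26.6% of all genes tested). The number that fell was 2 without MEF replicate 1, 3 without MEF replicate 2 or 3, and 4 without line 1-1 at p30. Of all genes tested, 3050, 3134, 3003 and 3239 fell in these fits, in that order, beside 3309 in the main fit. The 7 were the same 3 with Slc25a12, Slc25a16, Slc25a25 and Slc25a40, and of these 4 only Slc25a16 also passed between p30 and p5. The call of Slc25a16 against MEFs was lost when any 1 library was left out. Slc25a26 passed against MEFs at p30 (0.64, limma adjusted p = 0.046), a call lost without 6 of the 9 libraries in turn, and did not pass between p30 and p5 (0.46, limma adjusted p = 0.29). Slc25a26 shares 144 bases with Lrig1 on the other strand, and the part of Lrig1 reads was not tested. Lrig1 had 18.5 to 31.0 FPKM in ciXEN p5, 17.6 to 26.3 FPKM in ciXEN p30 and 4.12 to 9.49 FPKM in MEFs. With the ciXEN line as a block, 4 fell at p30, beside 3318 of all genes tested. Slc25a1, Slc25a16 and Slc25a40 were no longer called (limma adjusted p = 0.050, 0.056 and 0.054).

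Between the passages few carriers moved. In ciXEN p30 compared with ciXEN p5, 1 of the 36 rose and 4 fell, where 3.08% of all genes tested rose and 5.61% fell. Setting the library medians equal gave 3 that rose and 3 that fell, beside 775 and 536 of all genes tested (383 and 698 in the main fit). Slc25a21 fell the furthest (−1.27 ± 0.251, SE, limma adjusted p = 0.018), to 2.24, 1.08 and 0.746 FPKM in p30, against 6.25, 4.12 and 3.48 FPKM in p5 of the same lines, and its overlapping neighbour Pax9 was also lower in all p30 libraries than in any p5 library. Slc25a16, a carrier linked to coenzyme A, had 3.33, 2.96 and 3.41 FPKM in p30, against 5.49, 4.70 and 5.75 FPKM in p5 (−0.57). Slc25a10 (−0.54) and Slc25a36 (−0.54) also fell. Slc25a24 was the one that rose (0.70 ± 0.186, SE, limma adjusted p = 0.049), in all 3 lines, and stayed below every MEF library. That call was lost when any library but that of line 3-3 at p30 was left out.

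The libraries of p30 and p5 did not overlap for any of these 5 genes, which were picked by a test on the same values. Of the 36 carriers tested, 6 lay higher and 7 lay lower in p30 with no overlap, beside 12.4% and 16.4% of all genes tested. With only the 6 ciXEN libraries and the line as a block none of the 5 was called (limma adjusted p = 0.15 for Slc25a10, 0.17 for Slc25a16 and 0.11 for Slc25a21), nor was any of the 12443 genes, of which 2538 had an unadjusted p under 0.05. With the replicate number as a block in the fit of all libraries, Slc25a21 was the 1 that fell. No carrier that fell was called without line 1-1 at p5 or without line 2-1 at p30, 2 were without line 2-1 or 3-3 at p5, and the number that rose ranged from 0 to 3 over the libraries left out. Among the genes around the carriers, Cpt1a, the liver form of carnitine palmitoyltransferase, fell by 1.15 in p30 and Gldc rose by 1.95.

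**Figure D4:**
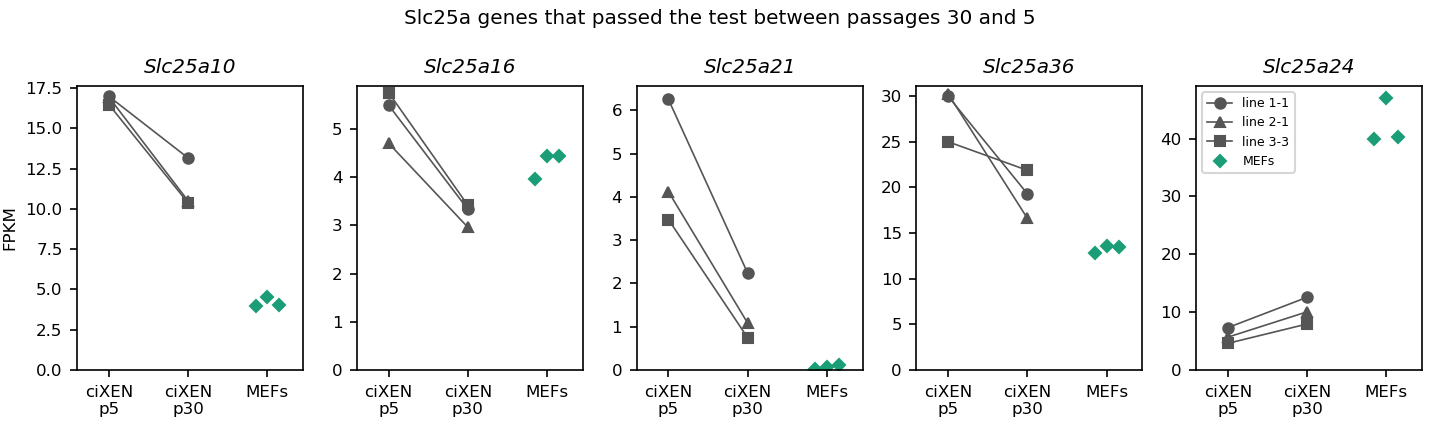
FPKM of the 5 carriers that passed the test between p30 and p5, with lines joining the p5 and p30 libraries of each ciXEN line (1-1, 2-1, 3-3) and the 3 MEF libraries beside them; each panel has its own scale from 0. Slc25a21 is at 0.746 to 2.24 in p30 and 3.48 to 6.25 in p5, and Slc25a24 at 7.96 to 12.6 in p30 and 4.61 to 7.33 in p5.

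Other mitochondrial genes gave a setting for the family, to be read beside the 42.4% of all genes tested that rose and the 27.6% that fell. Of 16 ATP synthase genes tested, 13 rose in ciXEN cells compared with MEFs and 3 did not pass, and their median log2 fold change was 0.63. Of 13 genes of the machinery that inserts carriers into the inner membrane, 10 rose and 1 fell (median 0.59), and of 16 genes taken as measures of mitochondrial content 12 rose and 1 fell (median 0.55). Atp5a1, the alpha subunit of the synthase, had 199 to 256 FPKM in ciXEN cells and 124 to 139 FPKM in MEFs (0.75), and Tfam, which packs and transcribes mitochondrial DNA, had 20.3 to 32.2 FPKM in ciXEN cells and 10.3 to 12.8 FPKM in MEFs (1.05). The genes that fell were Timm10b (−0.39), an intermembrane-space chaperone of carrier import, and Mfn2 (−0.79), which acts in mitochondrial fusion. These medians stand beside 0.40 for the carriers and 0.20 for all genes tested.

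Transporters of the inner membrane outside the family were tested in 21 genes, of which 9 rose and 9 fell, against 42.4% and 27.6% of all genes tested. Mcub, the inhibitory subunit of the calcium uniporter, had 0.105, 0.192 and 0.114 FPKM in ciXEN p5 and 1.34, 1.04 and 0.530 FPKM in ciXEN p30, against 16.4, 18.5 and 14.7 FPKM in MEFs (−3.56). The pore subunit Mcu fell by 0.98, and Sfxn3, a sideroflexin, fell by 2.51. Of 3 tested genes of the family with other names, Mtch2, an outer membrane insertase, rose by 0.51 (limma adjusted p = 0.040), while Mtch1 and Ucp2 did not pass. The rise of Mtch2 was lost with each of the 3 rescaled sets of values and without any 1 of the MEF libraries.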

How the data were processed

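The authors deposited FPKM values for 29599 transcripts in 9 libraries, without read counts, so no count test was run. RNA without ribosomal RNA was built into libraries with a stranded kit. The submitters' processing notes name cutadapt, HISAT2 2.0.5, StringTie, STAR 2.5.2b and, for these mouse libraries, the human build hg19, and the sources used here do not say which of these gave the values. Transcripts were matched by stable ID to GENCODE M21 on GRCm38 (29521 matched, 28196 with the same version), and the 78 without a match, 0.158% of the FPKM, were left out. FPKM were summed per gene.

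Genes averaging 0.5 FPKM or more were tested in 1 fit of 3 groups with limma 3.58.1 (lmFit, eBayes with trend, R 4.3.3) on log2(FPKM + 1), pseudocount 1, with Benjamini-Hochberg adjustment within each comparison. The p5 and p30 libraries of a number come from the same line by their labels, and the main fit took them as independent. Their deviations from the group means correlated at −0.0054, 0.014 and 0.071. When the steps were tested on simulated data, the fit for ciXEN cells against MEFs over 12443 genes called 38%, 80%, 90% and 98% of genes changed by 0.58, 1, 2 and 4 on the log2 scale. For p30 against p5 the shares were 28%, 66%, 86% and 100%. The changed genes were drawn above a floor of expression, the other 12243 genes did not change, and no effect of line was simulated. Far more genes were called against MEFs in the real libraries, so the shares do not describe that test.

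Alternatives were other pseudocounts, filters and scalings, eBayes without the trend, only the groups compared, the highest transcript of a gene, the replicate number or the line as a block, and leaving out each library. For ciXEN cells against MEFs, the passages of a line were also averaged, or the line taken as a random effect. No carrier reported by name lost its call in either fit. With the passages averaged, 5321 of all genes tested rose and 3479 fell, and Slc25a22 rose as well (0.38, limma adjusted p = 0.048).

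The carriers, the role classes and the lists of other genes were chosen with earlier results of these data known. Named in full were, in each comparison and class, the called carriers with the largest changes, up to 3 in each direction, that reached 2 FPKM in some group, both members of paralogue pairs, and the 5 highest carriers. Of the other lists up to 3 called genes in each direction were named. Mcu, Shmt2, Mtch1 and Ucp2 fall outside that rule and were chosen after their values were seen. A few genes that were tested and counted are not reported here by name. Protein sequences were not used here.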

Additional observations from a re-analysis of the deposited data

Results flagged for a closer look

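Of the 36 carriers tested, 2 had a ciXEN library that stood apart from the other 5 by Dixon's test at the 95% level, which flags about 1 in 20 groups by chance. Slc25a28 was at 16.0 FPKM in line 3-3 at p30, with 7.73 FPKM as the lowest of the 6 ciXEN libraries. Slc25a48 was at 8.02 FPKM in line 2-1 at p30, with 3.10 FPKM as the lowest.

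The change against MEFs differed between the passages for 5 carriers, which is the p30 against p5 comparison itself since both share the MEF libraries. The difference on the log2 scale (p30 minus p5) was −0.54 for Slc25a10, −0.57 for Slc25a16, −1.27 for Slc25a21, 0.70 for Slc25a24 and −0.54 for Slc25a36.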

How the results depend on the processing

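The carriers reported here by name had 71 calls over the 4 comparisons, and 44 of these were kept in every alternative. Of their 1516 values under alternatives, 1374 kept their call, 141 lost it and 1 reversed. With only the highest transcript of a gene, Slc25a36 (−0.17) reversed at p30 against MEFs. For ciXEN cells against MEFs, 8 fell with equal library sums, equal medians or quantile normalisation, against 5, and leaving out a library gave 14 to 21 that rose and 3 to 6 that fell. Over the same libraries left out, 4799 to 5246 of all genes tested rose and 3145 to 3468 fell. A fit of only those groups is the main fit and was not repeated. At p5 against MEFs, 5 fell with quantile normalisation or only the groups compared, against 3, and leaving out a library gave 13 to 18 that rose and 3 to 5 that fell. At p30 against MEFs, 4 fell with either replicate block, against 7, and leaving out a library gave 15 to 19 that rose and 2 to 6 that fell.

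For p30 against p5 the 1 that rose became 0 with no filter, equal sums, eBayes without trend, only the groups compared, the highest transcript or the replicate block of 6 libraries, 3 with equal medians and 2 with quantile normalisation, and 0 to 3 with a library left out. The 4 that fell became 0 with only the groups compared or the replicate block of 6 libraries, 1 with the replicate block by number, and 0 to 5 with a library left out. At p5 against MEFs the call of Slc25a28 was lost with no filter, each of the 3 rescalings, the highest transcript and 6 of the 9 libraries left out in turn. The replicate block by number also ended it (limma adjusted p = 0.065), but a MEF library has nothing but its number in common with a line. The call of Slc25a30 at p5 was lost with the 3 rescalings, the highest transcript and 5 of the 9 libraries left out in turn. Equal medians moved the median log2 fold change of all genes to 0.11 at p5 against MEFs, from 0.22, and to 0.08 in p30 against p5, from −0.02. The cause of these differences was not tested.

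Of the other lists, the 1 family gene with another name that rose became 0 with each rescaling and with the highest transcript, and 0 to 1 with a library left out. The 1 carrier insertion gene that fell became 0 to 1 with a library left out. The 1 carnitine gene that rose became 2 with the highest transcript and 1 to 2 with a library left out. Of the ATP synthase genes 1 fell with equal sums, and of the content genes 0 fell with the highest transcript. Depth is unknown, so no limit of detection can be given for carriers listed at or near 0.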
